A study of Bos taurus with 6 samples.

Results

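The genes described are 46 members of cytokine, chemokine and NF-kB signalling: inflammatory ligands and their receptors, the Toll-like receptors, the NF-kB subunits and their inhibitors, STAT3, and genes that these pathways are known to switch on. Members were chosen by name, with earlier results of these data known, so the shares below do not come from a choice blind to the data. Of the 46, 41 carry at least 1 probe set with a single gene symbol, out of 9155 genes named on the array. The 41 genes have 58 probe sets, and 14 genes have more than 1. IL6ST, LIFR, REL, RELB and TNFAIP3 have no such probe set and are not analysed here. Each gene was read from its probe set with the highest mean over the 6 arrays, and the other probe sets of these genes are given beside it.

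The samples are cumulus cells, the somatic cells around the oocyte, of crossbred cows (Bos indicus x Bos taurus). Pools of complexes the submitters call competent, from follicles at least 8 mm across, gave 3 arrays, and pools they call incompetent, from follicles of 1 to 3 mm, gave the other 3. Both groups came from ovaries collected at slaughter, both held only complexes with an evenly granulated ooplasm and compact cumulus, and in both the cells were stripped by pipetting and pooled before RNA extraction. The labels do not state the number of animals or complexes per pool, and the tests therefore speak to variation among pools, which may be partly technical. Most cumulus and granulosa markers were bright in both groups. The mean over 11 measured markers was 10.99 ± 0.09 in large-follicle arrays and 10.44 ± 0.09 in small-follicle arrays (log2 signal, SD, n = 3 each). The large-follicle arrays were all above the small-follicle arrays (10.89 to 11.04, against 10.34 to 10.50). None of the 11 lay in the bottom 25% of probe set means, but FOXL2, the dimmest, averaged 4.73, below the median probe set mean of 5.67. Of the 11 markers 7 passed the test described below (63.6%, against 15.4% of all genes): CYP19A1 rose by 2.14, CYP11A1 by 1.72, INHBA by 1.14, NR5A2 by 0.70, FSHR by 0.56 and INHA by 0.42, and GATM fell by 1.20.

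NF-kB is a family of transcription factors held in the cytoplasm by inhibitor proteins of the IkB family. Binding of interleukin-1, TNF or microbial ligands to their receptors releases it. Interleukin-1 and Toll-like receptors act through adaptors such as MYD88, IRAK1 and TRAF6. Released NF-kB induces cytokines, chemokines, adhesion molecules and its own inhibitors. Cytokines of the interleukin-6 and LIF group act through the receptor chain gp130, JAK kinases and STAT3. In the ovary these signals are best known from the inflammation-like events around ovulation, when cumulus cells express some genes otherwise known from immune cells.

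Transcripts higher in cumulus cells of large follicles were those of the signal transducers STAT3 and TRAF6, the receptors CD40 and TNFRSF1A, the NF-kB subunit RELA, the inhibitor NFKBIB, the adhesion molecule VCAM1 and the alarmin S100A9. The ligands that start these signals, among them IL1A, IL1B, IL6, TNF and LIF, did not pass the test. In the limma fit over 24016 probe sets, with Benjamini-Hochberg adjustment at a threshold of 0.05, 8 of the 41 genes were higher in large-follicle arrays (19.5%) and 0 were lower (1 at an unadjusted p under 0.05). The background over all 9155 genes, read the same way, was 7.08% higher and 8.3% lower. The median difference over the 41 genes was 0.20 log2 units, against 0.01 over all genes, and 31 of the 41 (75.6%) were above 0 in sign, against 51.4% of all genes. The median was 0.10 without large-follicle replicate 1.

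**Figure D1:**
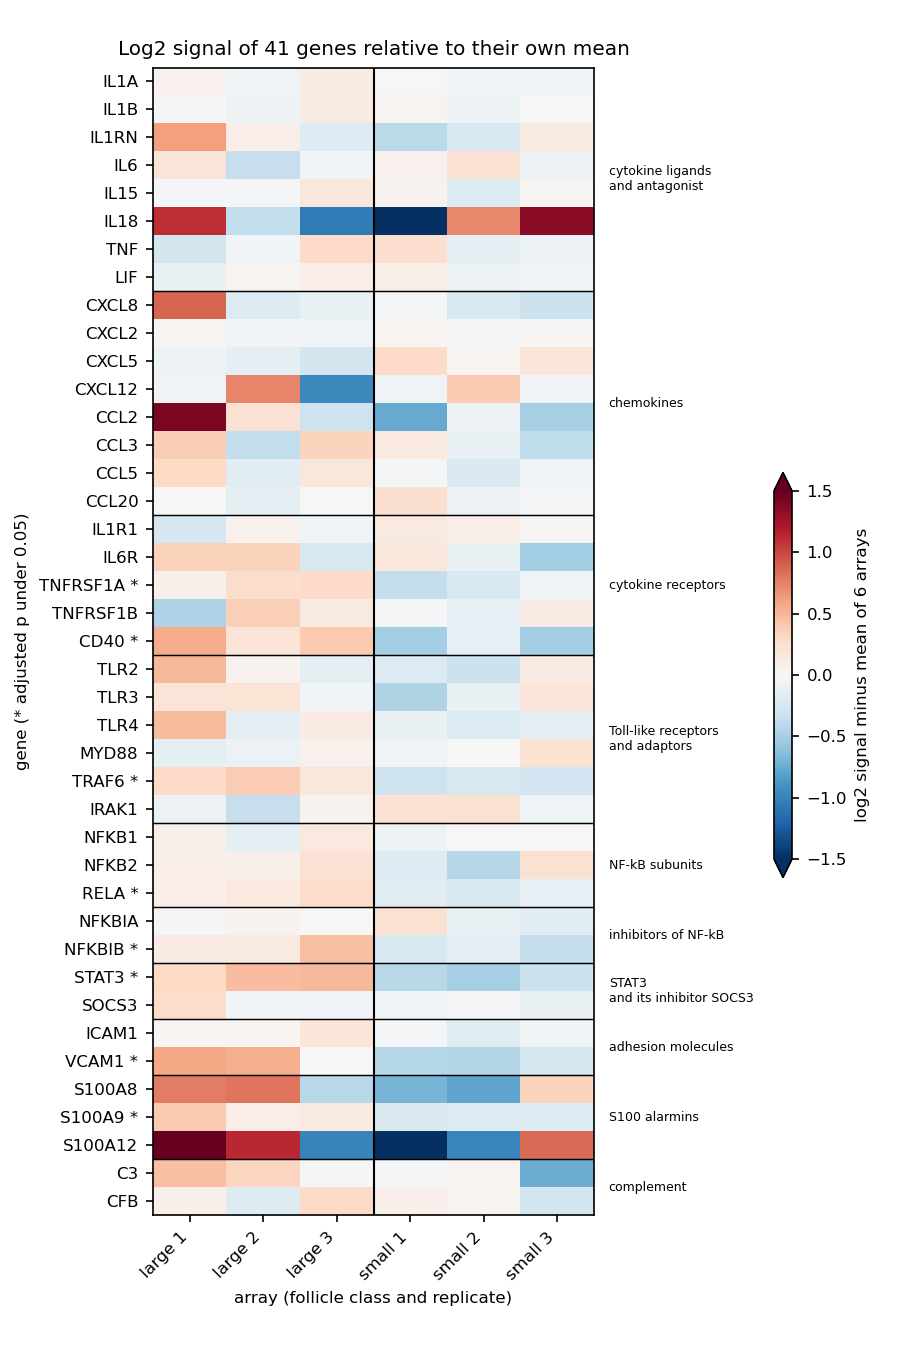
Log2 signal of each of the 41 measured genes (rows, grouped by role) in each array (columns, large follicles left of the line, small follicles right), as the deviation from the gene's own mean over 6 arrays, with colours capped at 1.5 log2 units. The 8 starred genes are redder in all 3 large-follicle arrays than in any small-follicle array, whereas IL18, CCL2, S100A8 and S100A12 differ between arrays of the same group.

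The groups did not overlap for 10 of the 41 genes (24.4%), fewer than the 36.4% of all genes. In 9 of these the large-follicle arrays were above (17.6% of all genes) and in 1, CXCL5, below (18.9% of all genes). Signal was often low: 11 of the 41 genes (26.8%) lay in the bottom 25% of all probe set means, against 12.2% of all genes. None of those 11 passed, and their median difference was 0.08. Among the other 30 genes 8 passed and the median was 0.29. RMA gives no detection call, so a low signal does not show whether the transcript was present.

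Besides the granulosa and cumulus marker mean given above, whose part in the results was not tested, other measures of the arrays moved with the groups and belong beside every result below. The 3'-minus-5' index, a sign of RNA quality that averages the signal gap between the ends of 6 control transcripts, was 1.98 ± 0.19 in large-follicle arrays and 2.46 ± 0.27 in small-follicle arrays (log2 units, SD, n = 3 each). The 2-sided exact permutation test gave p = 0.1, and no grouping of 6 arrays can give less. The index ran from 1.77 to 2.15 in large-follicle arrays and from 2.16 to 2.67 in small-follicle arrays, without overlap. With 6 arrays a fit can therefore hardly tell the index from the group. Once the index entered the fit as a covariate, calls over all 24016 probe sets went from 1374 higher and 1720 lower to 99 and 116. Of the 41 genes limma then called 0 (11 higher and 0 lower at an unadjusted p under 0.05), and all 8 genes kept a positive difference. It was then 0.98 for CD40, 0.69 for STAT3, 0.63 for VCAM1, 0.60 for NFKBIB, 0.53 for S100A9, 0.50 for TRAF6, 0.31 for RELA and 0.17 for TNFRSF1A. Of 20 leukocyte markers 18 were measured, of which 2 rose (LCP1 by 0.89 and CORO1A by 0.62), 0 fell and 16 did not pass (11.1% of the 18 were higher, against 7.08% of all genes). Their mean signal, which overlapped between the groups, was 5.16, 4.50 and 4.36 in large-follicle replicates 1, 2 and 3, against 4.19, 4.07 and 4.59 in small-follicle replicates 1, 2 and 3. The pan-leukocyte marker PTPRC averaged 3.57 in large-follicle arrays and 3.49 in small-follicle arrays, in the bottom 25% of signal. With the leukocyte mean as a covariate 645 probe sets were higher and 750 lower in all, and 2 of the 8 calls remained, STAT3 (0.86) and NFKBIB (0.61). Of the calls that were lost, the differences were 0.74 for CD40, 0.55 for TRAF6, 0.45 for TNFRSF1A and 0.37 for RELA, close to those without the covariate, and 0.57 for VCAM1 and 0.32 for S100A9, which were smaller. In such pooled samples more cells of a type and more RNA per cell cannot be told apart.

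**Figure D2:**
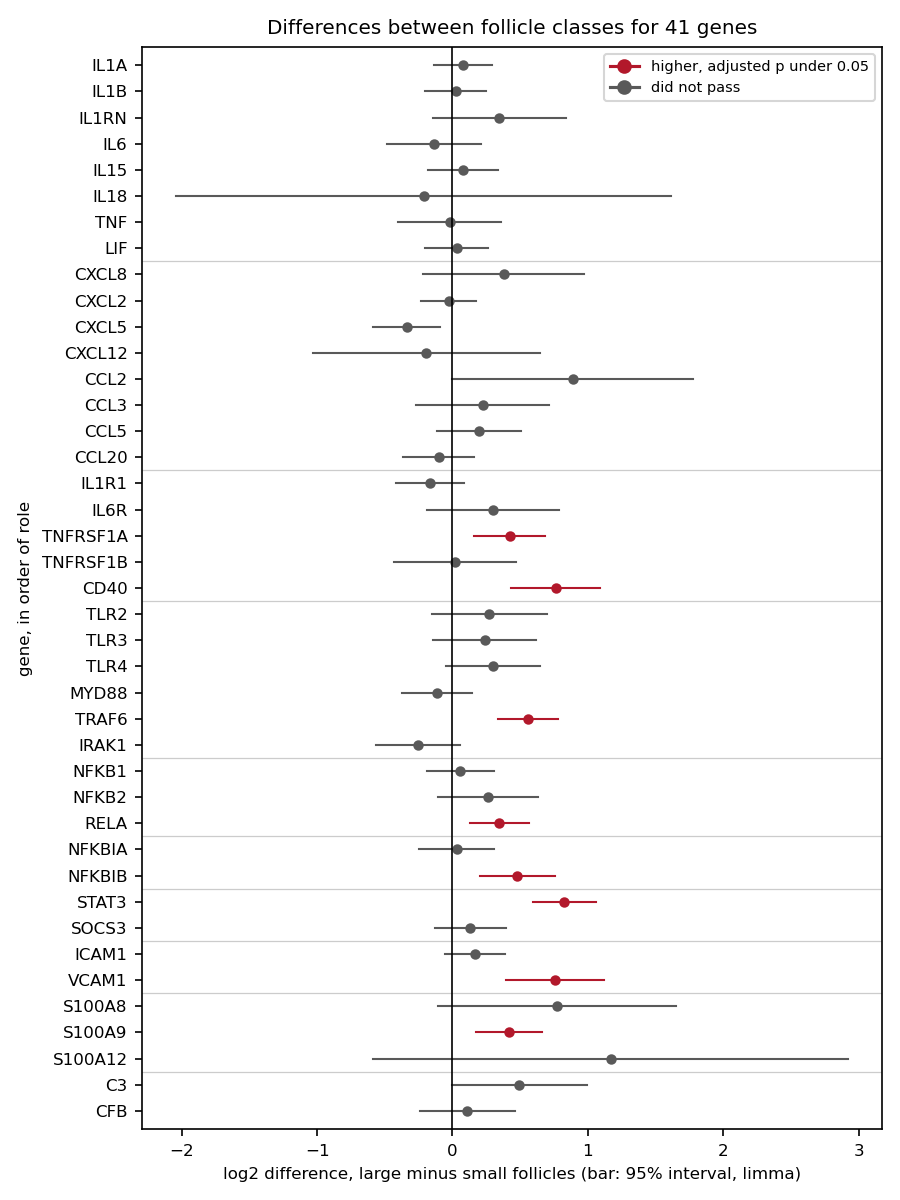
Difference in log2 signal, large minus small follicles, for the 41 measured genes in order of role, with 95% intervals from limma. The 8 genes that passed (red) lie between 0.35 and 0.83, and the intervals of IL18 and S100A12 are the widest drawn.

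STAT3, the transcription factor downstream of gp130, had the smallest adjusted p of the 41 genes. It read 8.10, 8.27 and 8.29 in large-follicle arrays, against 7.39, 7.31 and 7.48 in small-follicle arrays. The groups were well apart, with a difference of 0.83 ± 0.10 (log2, SE; 1.77-fold; limma adjusted p = 0.00257). Its second probe set read 5.77, 5.47 and 5.50, against 4.93, 4.86 and 4.99, a difference of 0.65 ± 0.11 (adjusted p = 0.00834), which made STAT3 the only one of the 41 genes called by 2 probe sets. The call held on leaving out any of the 6 arrays (0.78 to 0.89) and was lost with the 3'-minus-5' index in the fit (0.69, adjusted p = 0.0798).

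SOCS3, the feedback inhibitor that STAT3 induces, gave a split answer. Its brighter probe set read 3.96, 3.64 and 3.64 in large-follicle arrays, against 3.61, 3.66 and 3.57 in small-follicle arrays, so the groups overlapped (0.13 ± 0.11, adjusted p = 0.526). The other read 3.94, 3.51 and 3.62, against 3.23, 3.15 and 3.29, without overlap (0.47 ± 0.13, adjusted p = 0.0468). Both lay in the bottom 25% of signal. IL6R, the ligand-binding receptor of interleukin-6, differed by 0.30 ± 0.21 and by 0.24 at its second probe set, and neither passed.

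The ligands of that route were flat or dim. LIF read 4.75, 4.90 and 4.96 in large-follicle arrays and 4.94, 4.77 and 4.81 in small-follicle arrays, which overlap, with a difference of 0.03 and a 95% interval of -0.20 to 0.26. IL6 read 2.54, 2.00 and 2.31, against 2.42, 2.57 and 2.26, among the lowest signals on the array (interval -0.48 to 0.21). The interval of LIF is narrow, while that of IL6 is wider at a signal near the bottom of the range.

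Of 29 further genes of gp130 cytokines, JAK kinases, STATs and SOCS proteins, 14 were measured. JAK1, a kinase bound to gp130, rose by 0.44 ± 0.10 (adjusted p = 0.0279) and PIAS1, a SUMO ligase, by 0.48 ± 0.10 (adjusted p = 0.0176). SOCS5, another member of the SOCS family, fell by 0.58 (adjusted p = 0.0193), reading 7.26, 7.44 and 7.30 in large-follicle arrays, against 8.10, 7.95 and 7.70 in small-follicle arrays. The other 11 did not pass. Of the 14 genes 14.3% were thus higher, against 7.08% of all genes, and 7.14% lower, against 8.3%. OSMR, the oncostatin M receptor, was picked after its values were seen: its brightest probe set differed by 0.26 (adjusted p = 0.166) and another by 1.11 ± 0.21 (adjusted p = 0.0117).

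**Figure D3:**
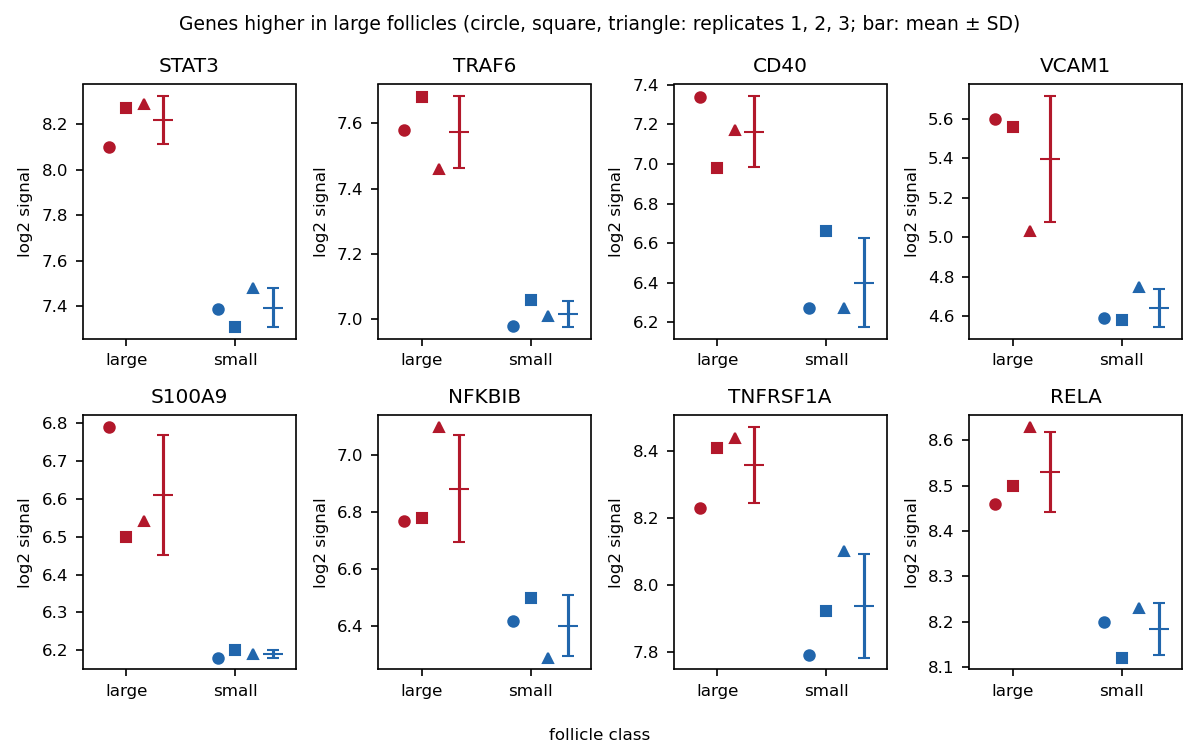
Log2 signal per array for the 8 genes that were higher in large follicles (red, left) than in small follicles (blue, right); symbols mark replicates 1, 2 and 3, bars the mean ± SD of 3 arrays, and each panel has its own axis that does not start at 0. No small-follicle array reaches the lowest large-follicle array in any panel, and the gap is narrowest for TNFRSF1A, at 8.23 against 8.10.

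The receptors also split. CD40, a TNF receptor family member on antigen-presenting and other cells, read 7.34, 6.98 and 7.17 in large-follicle arrays, against 6.27, 6.66 and 6.27 in small-follicle arrays. All 3 large-follicle values were above all small-follicle values (0.76 ± 0.14, 1.70-fold, adjusted p = 0.0122). A dim second probe set of CD40 differed by 0.05 ± 0.16, and with the mean of both the gene no longer passed (0.41, adjusted p = 0.0774).

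TNFRSF1A, the main signalling receptor for TNF, read 8.23, 8.41 and 8.44 in large-follicle arrays and 7.79, 7.92 and 8.10 in small-follicle arrays. The groups stayed apart by a small gap (0.42 ± 0.12, 1.34-fold, adjusted p = 0.0468). The call was lost without any single array other than small-follicle replicate 3 (0.35 to 0.50 over the 6 arrays), with each array centred on its median (0.41, adjusted p = 0.0512), and with the 3'-minus-5' index in the fit, where the difference was 0.17. TNFRSF1B, the second TNF receptor, differed by 0.02 ± 0.20, and IL1R1, the interleukin-1 receptor, by -0.17 ± 0.11 at a low signal, and neither passed.

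TNF itself read 4.40, 4.64 and 4.96 in large-follicle arrays, against 4.93, 4.53 and 4.60 in small-follicle arrays, an overlap with a difference of -0.02 (95% interval -0.40 to 0.36). Among 22 further genes of the TNF and TNF receptor superfamily 11 were measured. TNFRSF21, a death receptor, rose by 1.16 ± 0.31 (adjusted p = 0.043), LTB, a TNF-family ligand, fell by 0.33 (adjusted p = 0.0486), and 9 did not pass. Thus 9.09% of the 11 were higher, against 7.08% of all genes, and 9.09% lower, against 8.3%. A dim second LTB probe set differed by -0.12 and did not pass. TNFRSF12A, a TNF receptor family member among those 9, was picked after its values were seen: its brighter probe set overlapped between the groups (0.22 ± 0.12, adjusted p = 0.303), and the other read 7.72, 7.48 and 7.73 in large-follicle arrays, against 5.75, 6.72 and 6.67 in small-follicle arrays (1.26 ± 0.24, adjusted p = 0.0131).

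TRAF6, the ubiquitin ligase that relays interleukin-1, Toll-like receptor and CD40 signals, read 7.58, 7.68 and 7.46 in large-follicle arrays, against 6.98, 7.06 and 7.01 in small-follicle arrays. The spread within each group was small beside the gap (0.56 ± 0.10, 1.47-fold, adjusted p = 0.00924), and the call held without any of the 6 arrays (0.50 to 0.61). Its dimmer probe set also separated the groups but did not pass (0.23 ± 0.10, adjusted p = 0.19). With the leukocyte markers as a covariate the difference was 0.55 (adjusted p = 0.0524).

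The adaptors that act ahead of TRAF6 did not pass the test. MYD88, which couples Toll-like and interleukin-1 receptors to IRAK kinases, read 8.45, 8.50 and 8.65 in large-follicle arrays and 8.53, 8.59 and 8.82 in small-follicle arrays, which overlap (-0.11 ± 0.11, adjusted p = 0.594). IRAK1, the kinase that binds TRAF6, read 8.25, 7.99 and 8.39, against 8.55, 8.57 and 8.27, also overlapping (-0.25 ± 0.14, adjusted p = 0.283). Its other probe set differed by -0.38 ± 0.14 (adjusted p = 0.133), and the mean of both passed as lower (-0.31, adjusted p = 0.0464).

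The receptors at the head of this route showed no call. TLR2 and TLR4, sensors of bacterial lipoprotein and endotoxin, differed by 0.27 ± 0.18 and 0.30 ± 0.15, and by 0.09 and 0.14 without large-follicle replicate 1. TLR3, the sensor of double-stranded RNA, has 3 probe sets that differed by 0.24 to 0.40, of which 0 passed. Among 26 further genes of interleukin-1 and Toll-like receptor signalling 13 were measured, and 1 of them passed (7.69% higher, against 7.08% of all genes): UNC93B1, which carries the intracellular Toll-like receptors to endosomes, rose by 0.42 ± 0.09 (adjusted p = 0.023).

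Of the NF-kB subunits, RELA, the main activating subunit, read 8.46, 8.50 and 8.63 in large-follicle arrays, against 8.20, 8.12 and 8.23 in small-follicle arrays. The groups did not overlap and the difference was small (0.35 ± 0.10, 1.27-fold, adjusted p = 0.0483). NFKB1, its usual partner, read 7.23, 6.99 and 7.29, against 7.06, 7.13 and 7.15, which overlap (0.06 ± 0.11, 95% interval -0.19 to 0.30). NFKB2, the subunit of the alternative pathway, differed by 0.26 ± 0.16 and did not pass. The RELA call was lost on leaving out any of the 6 arrays (0.30 to 0.38, adjusted p up to 0.161) and with each array centred on its median (0.34, adjusted p = 0.0558).

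The inhibitors differed between genes. NFKBIB, the beta form of IkB, read 6.77, 6.78 and 7.10 in large-follicle arrays, against 6.42, 6.50 and 6.29 in small-follicle arrays, without overlap (0.48 ± 0.12, 1.40-fold, adjusted p = 0.0364). Its second probe set overlapped (0.11 ± 0.12), the mean of both did not pass (0.29, adjusted p = 0.0938), and the call was lost on leaving out any of the 6 arrays (0.37 to 0.54). NFKBIA, the alpha form, which NF-kB itself induces, read 7.33, 7.41 and 7.36 in large-follicle arrays and 7.58, 7.25 and 7.18 in small-follicle arrays, a difference of 0.03 (95% interval -0.25 to 0.31).

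Around this core, 22 of 27 listed genes of the IkB kinase complex, the TNF receptor adaptors and the NF-kB regulators have a value, and 4 of them rose, while the other 18 did not pass (18.2% of the 22 were higher, against 7.08% of all genes). The 4 were CHUK, an IkB kinase, by 0.41 ± 0.09 (adjusted p = 0.019), TNIP1, a partner of the inhibitor TNFAIP3, by 0.40 ± 0.09, NFKBIE, the epsilon form of IkB, by 0.48 ± 0.11, and the adaptor TRAF3 by 0.33 ± 0.09 (adjusted p = 0.0484). A dimmer TRAF3 probe set differed by -0.01, and the dimmer NFKBIE probe sets differed by 0.17 to 0.34 without passing. The other TNIP1 probe sets differed by 0.17 (adjusted p = 0.357) and 0.49 (adjusted p = 0.0224). The median over the 22 genes was 0.05.

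Of 19 further target genes of NF-kB a value was had for 16, and 13 of the 16 did not pass (18.8% called in either direction, against 15.4% of all genes). IER3, an early response gene, rose by 1.02 ± 0.15 (adjusted p = 0.00468), whereas PTGS2, the inducible prostaglandin synthase, fell by 1.28 and SOD2, the mitochondrial superoxide dismutase, by 0.42.

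The interleukin-1 ligands were dim, and neither passed. IL1B read 3.66, 3.60 and 3.80 in large-follicle arrays and 3.72, 3.60 and 3.67 in small-follicle arrays, overlapping at a difference of 0.02 (95% interval -0.20 to 0.25), with 0.18 at its second probe set. IL1A read 3.81, 3.68 and 3.86, against 3.74, 3.70 and 3.68, with a second probe set of the opposite sign (-0.09). Both genes lay in the bottom 25% of signal. IL1RN, the natural antagonist of the interleukin-1 receptor, differed by 0.35 ± 0.21 (0.13 without large-follicle replicate 1), and IL15 by 0.08 ± 0.11, and neither passed.

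IL18, an interleukin-1 family cytokine picked after its values were seen, varied widely between pools of the same group. It read 6.64, 5.16 and 4.47 in large-follicle replicates 1, 2 and 3, against 3.78, 6.25 and 6.88 in small-follicle replicates 1, 2 and 3. Each group thus held both high and low arrays, and the SE of 0.80 compares with a median SE of 0.12 over all genes. The mean of 7 stroma markers, of which 0 were called, was 6.43, 5.82 and 5.68 in the large-follicle arrays and 5.73, 6.03 and 6.73 in the small-follicle arrays, highest in the same 3 arrays as IL18. The part of such cells in the IL18 values was not tested.

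**Figure D4:**
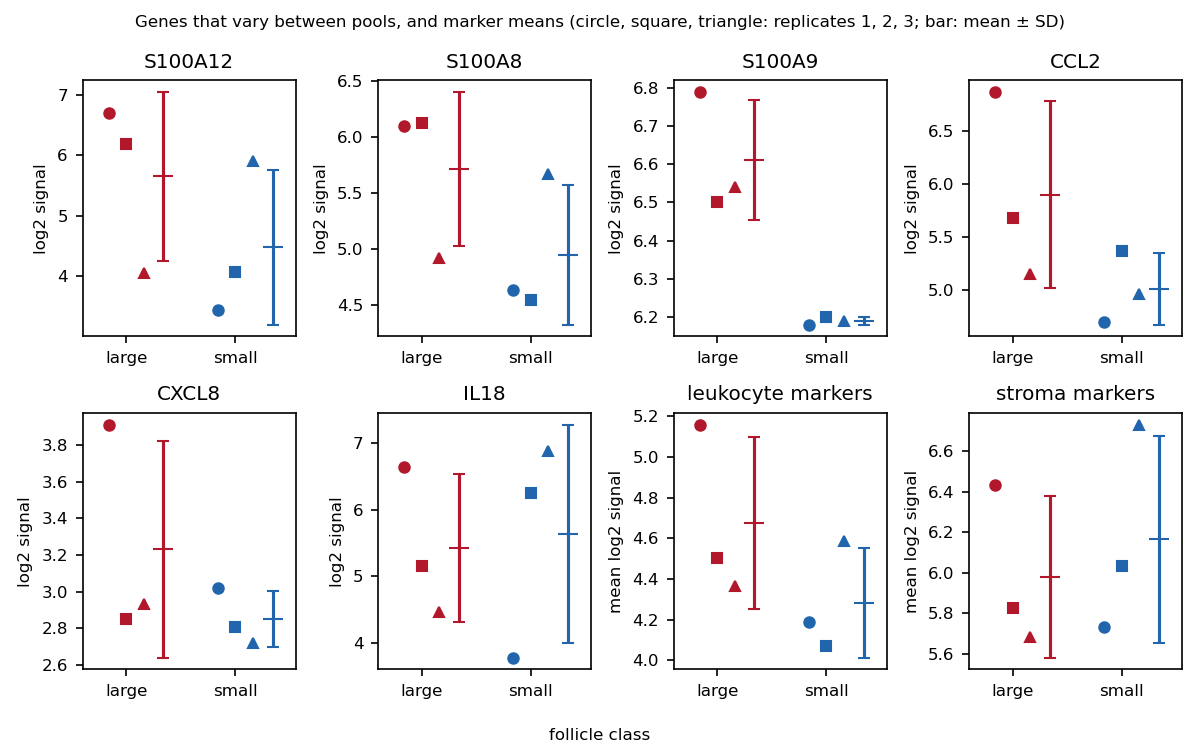
Log2 signal per array for 6 genes, and the mean signal of the leukocyte and stroma markers, in large-follicle (red, left) and small-follicle arrays (blue, right); symbols mark replicates 1, 2 and 3, bars the mean ± SD, and axes differ between panels. S100A12 and S100A8 are high in large-follicle replicates 1 and 2 and small-follicle replicate 3, which are also the 3 arrays with the highest leukocyte means, while S100A9 separates the groups.

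None of the 8 chemokines passed, with differences between -0.34 and 0.89. CCL2, which attracts monocytes, read 6.87, 5.68 and 5.15 in large-follicle arrays, against 4.70, 5.37 and 4.96 in small-follicle arrays, with large-follicle replicate 1 far above the rest. Its difference of 0.89 ± 0.39 did not pass (adjusted p = 0.185) and was 0.40 without that array. A dimmer CCL2 probe set separated the groups without passing (0.63 ± 0.20, adjusted p = 0.0827).

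CXCL8, the neutrophil attractant, read 3.91, 2.85 and 2.93 in large-follicle arrays and 3.02, 2.81 and 2.72 in small-follicle arrays. Again large-follicle replicate 1 stood above the others, and the difference of 0.38 ± 0.26 was 0.04 without it. CXCL5, a related attractant and the gene whose large-follicle arrays all lay below, read 2.66, 2.59 and 2.46, against 3.03, 2.77 and 2.92, near the bottom of the signal range (-0.34 ± 0.11, adjusted p = 0.081). CXCL2, CXCL12, CCL3, CCL5 and CCL20 differed by -0.19 to 0.22 at their brightest probe sets. CCL3 has another probe set that separated the groups without passing (0.46 ± 0.17, adjusted p = 0.115), and the dimmest differed by 0.03.

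Among 44 further chemokines and chemokine receptors 29 were measured and 1 was called (3.45% higher, against 7.08% of all genes). CXCR4, a receptor of CXCL12, read 7.01, 6.38 and 6.52 in large-follicle arrays, against 5.49, 5.81 and 5.92 in small-follicle arrays, without overlap (0.90 ± 0.18, adjusted p = 0.016). CXCL12 itself, the ligand, read 6.08, 6.87 and 5.17, against 6.07, 6.53 and 6.10, which overlap (-0.19 ± 0.37).

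The adhesion molecules are known targets of NF-kB. VCAM1, which binds leukocyte integrins, read 5.60, 5.56 and 5.03 in large-follicle arrays, against 4.59, 4.58 and 4.75 in small-follicle arrays. The groups did not overlap, with large-follicle replicate 3 closest to the small-follicle arrays (0.76 ± 0.16, 1.69-fold, adjusted p = 0.0183). The call was lost without large-follicle replicate 1 (0.66) or 2 (0.68) or small-follicle replicate 1 (0.73) or 2 (0.73). ICAM1 separated the groups at a low signal but did not pass (0.17 ± 0.10, adjusted p = 0.33).

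The S100 proteins S100A8, S100A9 and S100A12 are calcium-binding alarmins abundant in neutrophils and monocytes, and S100A12 lies between the genes of S100A8 and S100A9 on chromosome 3 in the RefSeq annotation of ARS-UCD2.0. S100A9 read 6.79, 6.50 and 6.54 in large-follicle arrays, against 6.18, 6.20 and 6.19 in small-follicle arrays. The small-follicle values were almost equal, and the groups did not overlap (0.42 ± 0.11, 1.34-fold, adjusted p = 0.0362). The call was lost on leaving out any of the 6 arrays (0.33 to 0.47) and with the leukocyte markers as a covariate (0.32, adjusted p = 0.195).

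S100A12 read 6.70, 6.19 and 4.06 in large-follicle replicates 1, 2 and 3, against 3.45, 4.08 and 5.91 in small-follicle replicates 1, 2 and 3. S100A8 read 6.10, 6.13 and 4.92, against 4.63, 4.54 and 5.67. In both genes large-follicle replicate 3 was low and small-follicle replicate 3 high, so the groups overlapped and neither passed (1.17 ± 0.77 for S100A12 and 0.77 ± 0.38 for S100A8). The dimmer S100A9 probe set, at 4.51, 4.18 and 3.37, against 3.14, 3.42 and 3.92, had the same 3 high arrays, unlike its brighter one. Those arrays were also the ones with the highest leukocyte means. Among the leukocyte markers, CD14 read 6.70, 5.60 and 4.31, against 4.23, 4.12 and 5.21, at its brighter probe set. Its dimmer probe set read 4.76, 4.28 and 4.33, against 4.34, 4.19 and 4.26, without that pattern. CD68 had the same 3 high arrays, whereas CSF1R and AIF1 did not. LCP1 and CORO1A, the called leukocyte markers, were instead higher in every large-follicle array than in any small-follicle array. With the leukocyte mean as a covariate the S100A12 difference was -0.02. The part of leukocytes in the S100 values was not tested.

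C3, the central complement protein, read 8.76, 8.62 and 8.27 in large-follicle arrays and 8.27, 8.34 and 7.56 in small-follicle arrays, overlapping, since small-follicle replicates 1 and 2 were not below large-follicle replicate 3 (0.49 ± 0.22, adjusted p = 0.191). It was 0.24 without small-follicle replicate 3, and its other probe sets differed by -0.06 and 0.22. CFB, complement factor B, differed by 0.11 ± 0.15. Of 27 further complement components and regulators 23 were measured and 0 passed in the limma fit, against 15.4% of all genes called in either direction. At an unadjusted p under 0.05 there were 4 of the 23, against 2857 of all 9155 genes.

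Over the 7 lists of further pathway genes together, 128 of 194 were measured, of which 10 rose (7.81%), 4 fell and 114 did not pass. That share of higher calls lies near the 7.08% of all genes, the 4 lower calls are 3.12%, against 8.3% of all genes, and the median difference was 0.09. When each array was left out in turn, PTGS2 and IER3 kept their call in all 6 fits, and the other 12 of the 14 called genes lost it in at least 1. CXCR4 lost it without small-follicle replicate 1 alone (0.77, adjusted p = 0.0512), and PIAS1 without large-follicle replicate 2 or small-follicle replicate 2. SOCS5 and UNC93B1 were called in 2 of the 6 fits, CHUK, NFKBIE, TNIP1, JAK1 and TNFRSF21 in 1, and TRAF3, LTB and SOD2 in 0. The TNFRSF21 difference ran from 0.81 to 1.49 over these fits and was called only without large-follicle replicate 2. With the 3'-minus-5' index in the fit limma called 0 of the 14 genes (11 at an unadjusted p under 0.05), and with the leukocyte markers it called 3, NFKBIE, PTGS2 and IER3.

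**Figure D5:**
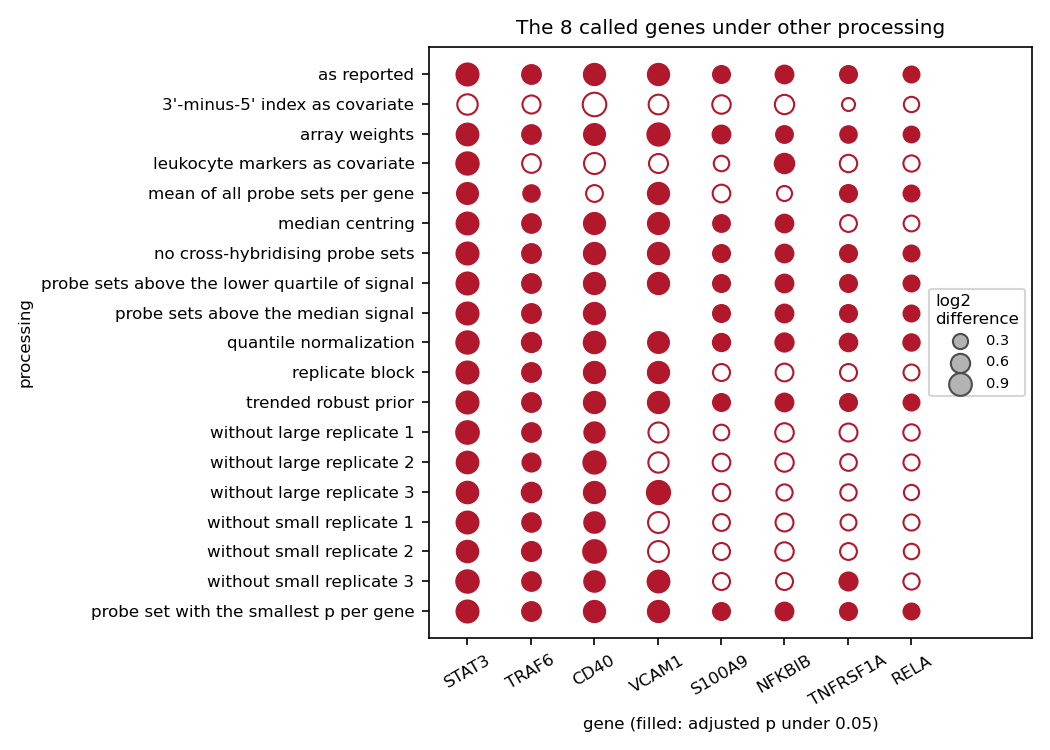
The 8 called genes (columns) under each processing (rows); circle area grows with the log2 difference, large minus small follicles, and filled circles have an adjusted p under 0.05. STAT3 and TRAF6 keep their call on leaving out any of the 6 arrays, as does CD40, whereas RELA, NFKBIB and S100A9 lose it each time; VCAM1 has no circle where only probe sets above the median signal were kept.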

How the data were processed

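RNA of pooled cumulus cells was hybridised to 6 Affymetrix bovine arrays, 3 per group. Per the submitters' processing notes the authors used RMA, and the deposited table holds its log2 signals per probe set. The labels name no software version or setting. They run from 1.80 to 14.39, with array medians from 5.64 to 5.68. After 112 control probe sets were left out, 24016 remained. A single gene symbol is given for 13292 of them, several for 86 and none for 10638, and 13263 matched RefSeq (ARS-UCD2.0) by gene identifier, for names and gene order only.

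The fit used limma 3.58.1 under R 4.3.3 with lmFit and eBayes and no block, as large_follicle minus small_follicle and 2-sided, and p-values were adjusted over all probe sets by the Benjamini-Hochberg method. No filter on low values was used. The number of arrays limits the precision. The procedure was tested on simulated data.

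Members and lists were chosen with earlier results of these data known. Values per array are given for members called by any probe set, the 6 brightest, the 4 uncalled with the largest difference, and a fixed set (IL1A, IL1B, IL6, CXCL8, TNF, NFKB1, RELA, NFKBIA, STAT3, LIF); of each pathway list, the called genes are named. The markers were those of leukocytes, stroma, granulosa and cumulus cells, endothelium (7 measured, TEK fell by 0.57), theca (5 measured, NR2F2 fell by 0.76) and the oocyte (7 measured, 0 called). The theca marker mean was 6.87 in large-follicle and 6.95 in small-follicle arrays, with HSD3B1 (9.46) and INSL3 (9.40) bright and PTCH1 (2.865) dim over the 6 arrays. Other settings changed the filter, the scaling, the prior, the weights, the covariates, the replicate block, the probe set read per gene, or dropped single arrays.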

Additional observations from a re-analysis of the deposited data

How the results depend on the processing

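The 8 genes called as higher stayed positive under every alternative in which they were measured, and the count of lower genes stayed at 0 (0 to 2 at an unadjusted p under 0.05, by limma) except with the mean of all probe sets per gene, where it was 1 and 5 genes were higher. Leaving out 1 array gave 3 to 5 higher member genes, a median difference of 0.10 to 0.22, and 787 to 1142 probe sets higher and 828 to 1337 lower in all. With the 3'-minus-5' index in the fit 0 member genes passed, and 99 probe sets were higher and 116 lower in all. With the leukocyte markers as a covariate 2 member genes passed, the median was 0.088, and 645 probe sets were higher and 750 lower. The median was 0.26 with array weights, 0.29 above the lower quartile of signal, 0.32 above the median signal and 0.24 with the probe set of smallest p. Of the 33 genes that did not pass, 20 changed sign under at least 1 alternative, 0 of these past the threshold, and 2 gained a call: IRAK1 with the mean of all probe sets and SOCS3 with the probe set of smallest p. With the replicate block 4 member genes passed (CD40, STAT3, TRAF6 and VCAM1), the median stayed at 0.20, and 930 probe sets were higher and 1034 lower. The labels do not state whether arrays with the same replicate number share ovaries. Deviations from the group means correlated at -0.002, -0.054 and -0.343 between arrays of the same number. Between arrays of different numbers the correlations ran from -0.277 to 0.318. With 3 arrays per group these values cannot decide whether the samples are paired. The causes of these shifts were not tested. Low signal limits what can be said of the 11 dimmest members.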
